A study of Mus musculus with 2 samples.

Results

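Wnt ligands, their receptors and the secreted proteins that modulate them were measured in fibro-adipogenic progenitors (FAPs), the mesenchymal cells that lie between the myofibers of skeletal muscle. The genes were taken by symbol from the count tables. They were all Wnt, Fzd, Sfrp, Dkk and Rspo genes with a numbered symbol, together with *Wif1*, *Frzb*, *Lgr4*, *Lgr5*, *Lgr6*, *Lrp5*, *Lrp6*, *Ror1* and *Ror2*. Of 31053 genes in the tables, 50 matched, and 39 of these had 20 or more unique molecular identifiers (UMIs, each counting 1 captured transcript) over both libraries and are described here. The 39 genes comprised 11 of 19 Wnt ligands, 10 of 10 Frizzled receptors, 2 Lrp and 2 Ror co-receptors, 4 R-spondins, 2 of 3 Lgr receptors, 5 members of the Sfrp family including *Frzb*, 2 of 4 Dkk genes and *Wif1*. The 11 remaining genes had at most 9 UMIs. *Wnt3a*, *Wnt7a*, *Wnt7b*, *Wnt8a* and *Wnt9b* had none, *Wnt8b* and *Dkk4* had 1, *Wnt3* had 2, *Dkk1* had 4, *Wnt10a* had 8 and *Lgr6* had 9.

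The study compared FAPs of limb muscle from C57BL/6 mice (C57BL/6J in the study's methods) at 3 weeks of age, with 1 droplet library for each genotype. The control mice were Bap1f/f, that is, they carried the loxP-flanked *Bap1* alleles without Cre. The other mice were Prx1-Cre;Bap1f/f, named Bap1ΔMPC in the study, in which Cre is driven by a promoter active in limb mesenchyme, the tissue of origin of FAPs. Live cells were sorted as Sca1+ cells without CD45, CD31 and Vcam1, and the number of mice behind each library is not given in the sources used here. With 1 library per genotype there was no replicate and no test, so all intervals below are 95% intervals that cover counting error only, and a difference between the genotypes and a difference between the libraries cannot be told apart.

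The WT-labelled library held 4103 cells and 51015705 UMIs, and the ΔMPC-labelled library held 4378 cells and 49540066 UMIs. The median cell had 12232 and 11018 UMIs. Of 8481 cells, 5 barcodes occurred in both libraries. *Bap1*, the targeted gene, had 897 UMIs in the WT-labelled library, or 17.6 CPM (counts scaled to a total of 1000000, interval 16.5 to 18.8), and 1072 UMIs in the ΔMPC-labelled library, or 21.6 CPM (20.4 to 23.0). *Bap1* was thus not lower in the ΔMPC-labelled library. A 3' tag does not tell which exons a transcript held, so these counts leave the deletion unchecked. Directions between the libraries are therefore those of their labels, and figures write *Bap1* WT and *Bap1* ΔMPC for them. The FAP genes *Pdgfra* (347 and 298 CPM) and *Ly6a* (1640 and 2002 CPM), which encodes Sca1, were detected in both. The 3 genes of the negative sort markers summed to 39.8 and 25.4 CPM, with no UMI of *Ptprc*, which encodes CD45. A list of 5 muscle stem cell genes summed to 6.78 and 12.6 CPM, with no UMI of *Pax7*, *Myf5* and *Myod1*, and a list of 5 Schwann cell genes to 21.2 and 67.3 CPM. The part of the cells behind these transcripts in the results was not tested.

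Cells with 25 or more UMIs of *Pi16*, *Sema3c*, *Anxa3* and *Efemp1* together per 10000 UMIs were called Dpp4-type, and all others are called other cells. The cut gave 1050 Dpp4-type cells in the WT-labelled library (25.6%, interval 24.3% to 27.0%) and 1251 in the ΔMPC-labelled library (28.6%, 27.2% to 29.9%). The classes are ranges of a score, and 210 and 337 cells lay between 20 and 30. A list of 6 markers of Dpp4+ FAPs, 4 of them the score genes, had a median of 66.2 UMIs per 10000 in Dpp4-type cells against 4.51 in other cells of the WT-labelled library, and 54.7 against 3.15 in the ΔMPC-labelled library. A list of 7 markers of Cxcl14+ FAPs, which did not enter the score, had medians of 10.4 against 43.3 and of 8.11 against 35.3. Within the other cells, a list of 6 tendon genes summed to 280 CPM in the WT-labelled and 602 CPM in the ΔMPC-labelled library, and a list of 6 adipocyte genes to 8.40 and 83.6 CPM. The effect of leaving out the cells richest in these genes is given beside the results that it changed most.

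Wnt proteins are secreted lipid-modified ligands. In the canonical branch, a Wnt binds a Frizzled receptor together with *Lrp5* or *Lrp6*, β-catenin escapes degradation, and genes bound by TCF/LEF factors are transcribed, whereas Wnt5a-type ligands also act through Ror receptors on cell shape and polarity. R-spondins bind Lgr receptors and keep Frizzled proteins on the cell surface, Sfrp proteins and *Wif1* bind Wnts outside the cell, and Dkk proteins act on Lrp co-receptors. In skeletal muscle, Wnt signals between mesenchymal cells, myofibers and stem cells are known for roles in growth, regeneration and the choice between a fibrous and an adipose fate.

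Summed over the 39 genes, Wnt pathway transcripts made up 2116 CPM in Dpp4-type cells of the WT-labelled library and 1027 CPM in Dpp4-type cells of the ΔMPC-labelled library. In other cells the sums were 1846 and 1488 CPM. CPM were computed from UMIs summed over the cells of a class in a library. A 3' UMI count does not grow with transcript length, but capture differs between transcripts, so levels of different genes are compared only roughly. Secreted modulators of the Sfrp family held the largest share, with 1266 and 438 CPM in Dpp4-type cells and 1023 and 683 CPM in other cells. Frizzled receptors summed to 260 and 165 CPM in Dpp4-type cells and 284 and 276 CPM in other cells. Wnt ligands summed to 338 CPM in Dpp4-type and 131 CPM in other cells of the WT-labelled library, and to 242 and 139 CPM in the ΔMPC-labelled library. The plot of levels by class and library shows the 39 genes side by side.

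**Figure D1:**
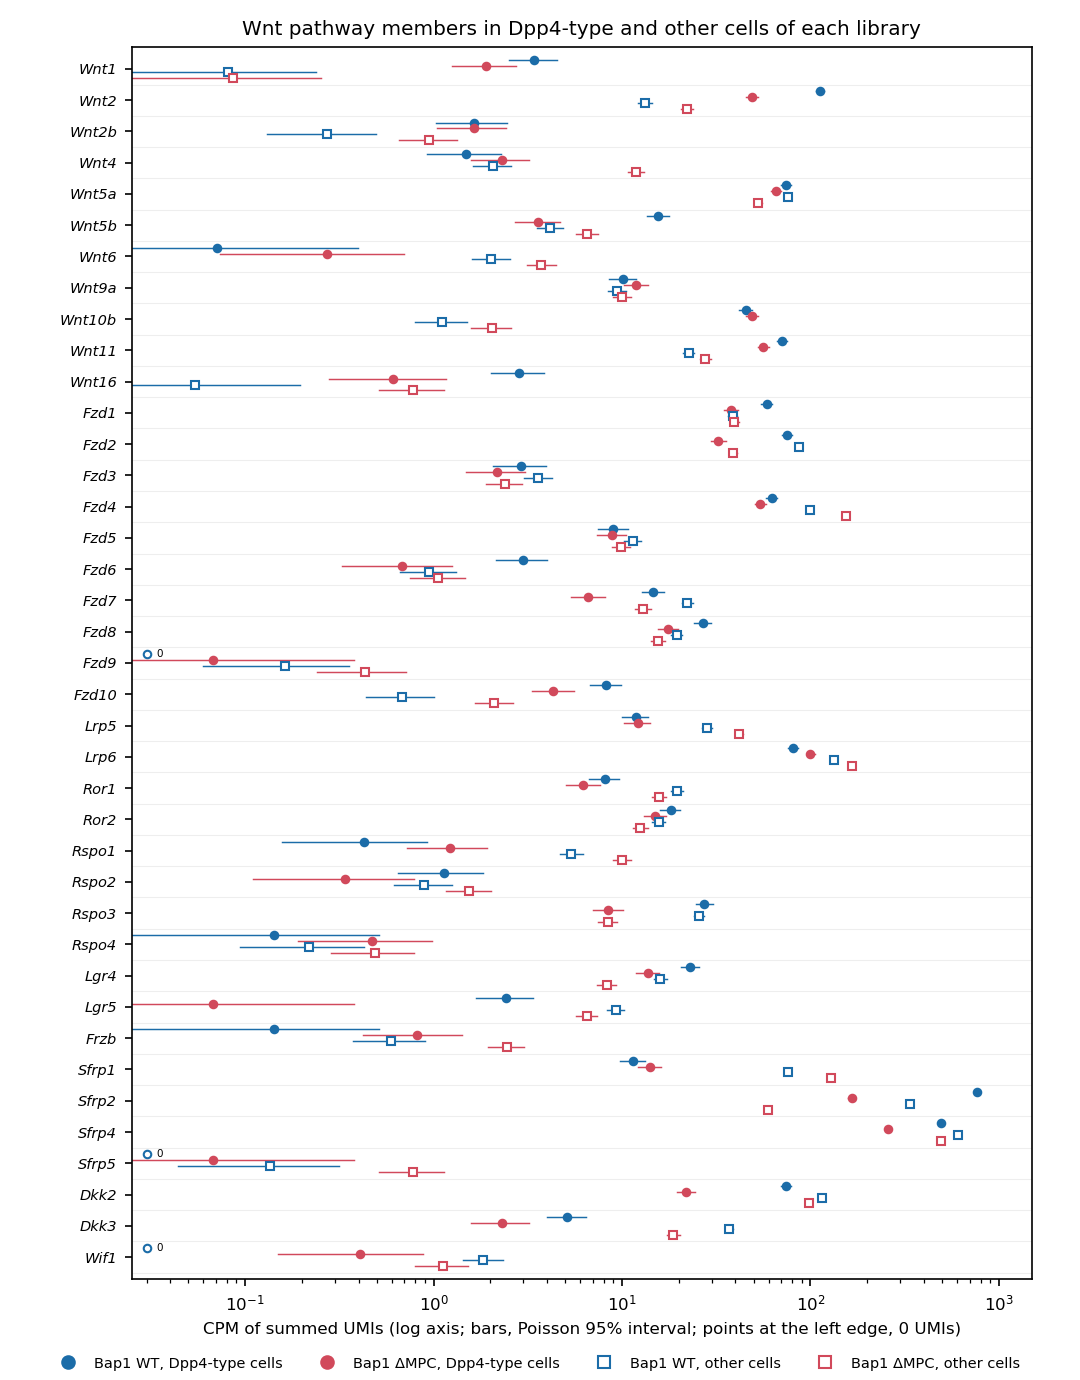
Level of each of the 39 genes in Dpp4-type cells (filled circles) and other cells (open squares) of the WT-labelled (blue) and ΔMPC-labelled (red) library, in CPM of summed UMIs on a log axis, with Poisson 95% intervals as bars and groups without a UMI drawn as open circles marked 0 at the left edge. Levels spanned from Sfrp2 at 763 CPM to 0, and Wnt10b, Wnt1 and Wnt2 were higher in the filled than in the open symbols of both libraries.

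Between the cell classes, the genes with over 3-fold differences were mostly ligands on the Dpp4-type side and secreted modulators on the other side. A gene entered a comparison with 20 or more UMIs over the groups compared, and a difference over 3-fold, the size used in the study, was counted. In the WT-labelled library 36 of the 39 genes were compared. Of these, 9 were over 3-fold higher in Dpp4-type cells, against 3.01% of all 13582 genes compared, and 7 (19.4%) were over 3-fold lower, against 7.06% of all genes. The 9 were *Wnt1*, *Wnt2*, *Wnt2b*, *Wnt5b*, *Wnt10b*, *Wnt11*, *Wnt16*, *Fzd6* and *Fzd10*. The 7 were *Wnt6*, *Rspo1*, *Lgr5*, *Frzb*, *Sfrp1*, *Dkk3* and *Wif1*. In the ΔMPC-labelled library 38 genes were compared. *Wnt1* and *Wnt10b* (5.26%) were over 3-fold higher in Dpp4-type cells, against 2.19% of all 13680 genes, and 11 (28.9%) were lower, against 7.49%. Those 11 were *Wnt4*, *Wnt6*, *Lrp5*, *Rspo1*, *Rspo2*, *Lgr5*, *Frzb*, *Sfrp1*, *Sfrp5*, *Dkk2* and *Dkk3*, of which *Rspo2*, *Frzb* and *Dkk2* were under 3-fold without a cluster of cells led by *Chad* that is described below, with log2 ratios of -0.85, -1.31 and -1.58. In the WT-labelled library *Fzd6*, *Lgr5* and *Frzb* were not past 3-fold with a score cut of 15 (1.54, -1.58 and -1.03), nor was *Wnt11* with a cut of 40 (1.56). The median size of the log2 ratio between classes, without its sign, was 1.23 and 1.03 over the genes described, against 0.26 and 0.27 over all genes. A class is a cut on 4 genes of the same cells, so genes that vary with those 4 differ between the classes by construction.

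**Figure D2:**
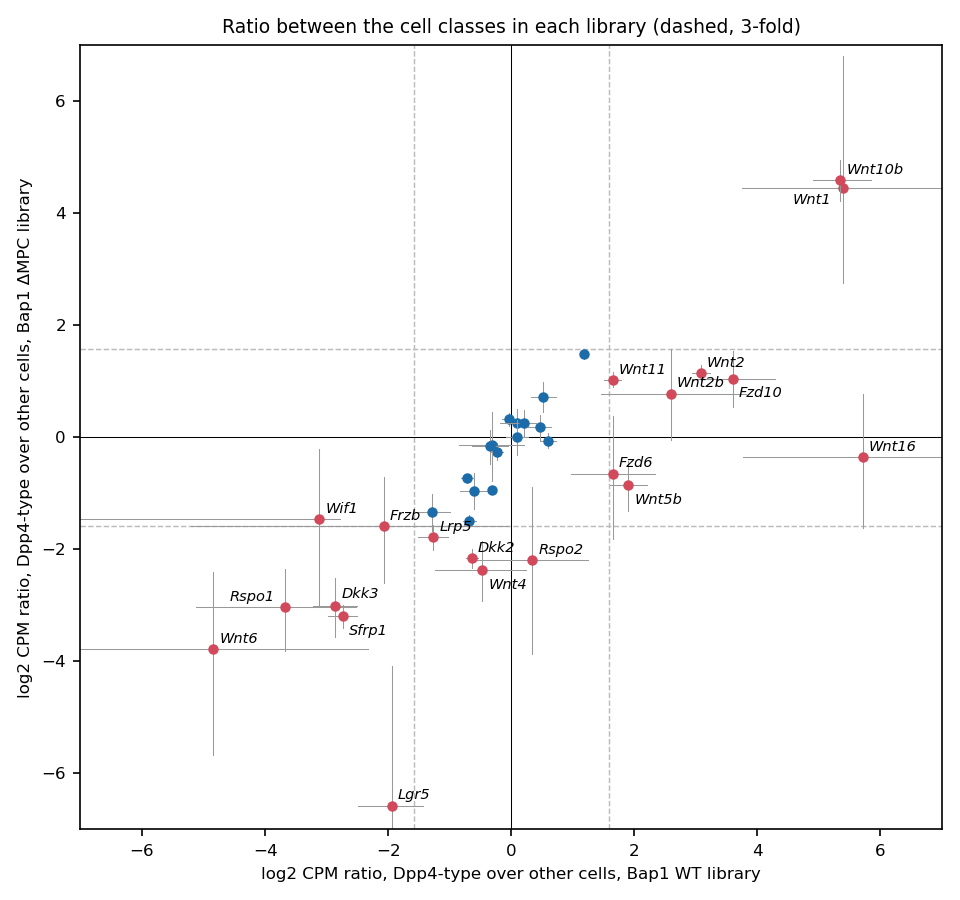
Log2 ratio of CPM in Dpp4-type over other cells, in the WT-labelled library (x axis) and the ΔMPC-labelled library (y axis), for genes compared in both, with 95% counting intervals as thin bars cut at the frame, 3-fold as dashed lines and red points for genes past 3-fold in either library. Wnt10b and Wnt1 lie at the upper right with log2 ratios of 5.35 and 5.39 in the WT-labelled library, while Wnt2, Wnt2b, Fzd10, Wnt16, Wnt5b and Fzd6 lie to the right but under 3-fold on the y axis. Wif1 had no UMI in Dpp4-type cells of the WT-labelled library and is drawn there with its 0 set to 3 counts.

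Between the libraries, Dpp4-type cells had 33 of the 39 genes to compare, and 8 (24.2%) were over 3-fold lower in the ΔMPC-labelled library, against 1.63% of all 12517 genes. These were *Wnt5b*, *Wnt16*, *Fzd6*, *Rspo2*, *Rspo3*, *Lgr5*, *Sfrp2* and *Dkk2*. None was over 3-fold higher, against 1.89% of all genes. In other cells 38 were compared, and 6 (15.8%) were over 3-fold higher in the ΔMPC-labelled library, against 3.68% of all 14271 genes, namely *Wnt2b*, *Wnt4*, *Wnt16*, *Fzd10*, *Frzb* and *Sfrp5*. *Rspo3* and *Sfrp2* (5.26%) were over 3-fold lower, against 2.18%. This balance depended on the cluster led by *Chad*. Without it 35 genes were compared, 4 were over 3-fold higher (*Wnt2b*, *Wnt4*, *Fzd10* and *Rspo4*) and 5 were over 3-fold lower (*Fzd6*, *Lgr5*, *Sfrp2*, *Dkk3* and *Wif1*). The shares over all genes without that cluster are not at hand, so these counts stand without a reference. Over all cells, *Wnt4*, *Frzb* and *Sfrp5* were over 3-fold higher (7.69% of 39, against 3.15% of 14729 genes), and *Rspo3* and *Sfrp2* were over 3-fold lower (5.13%, against 2.12%). The median log2 ratio was -0.62 in Dpp4-type cells and 0.23 in other cells, against 0.07 and 0.11 over all genes. With TMM scaling the median of all genes moved from 0.11 to 0.00 in other cells, and *Fzd10* was then no longer past 3-fold there, with a log2 ratio of 1.52, nor was it without cells that had 3 or more UMIs of the adipocyte list, with 1.58. The calls at low counts rested on few molecules. With a minimum of 100 UMIs, 4 of 24 genes were past 3-fold in Dpp4-type cells and 4 of 30 in other cells.

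**Figure D3:**
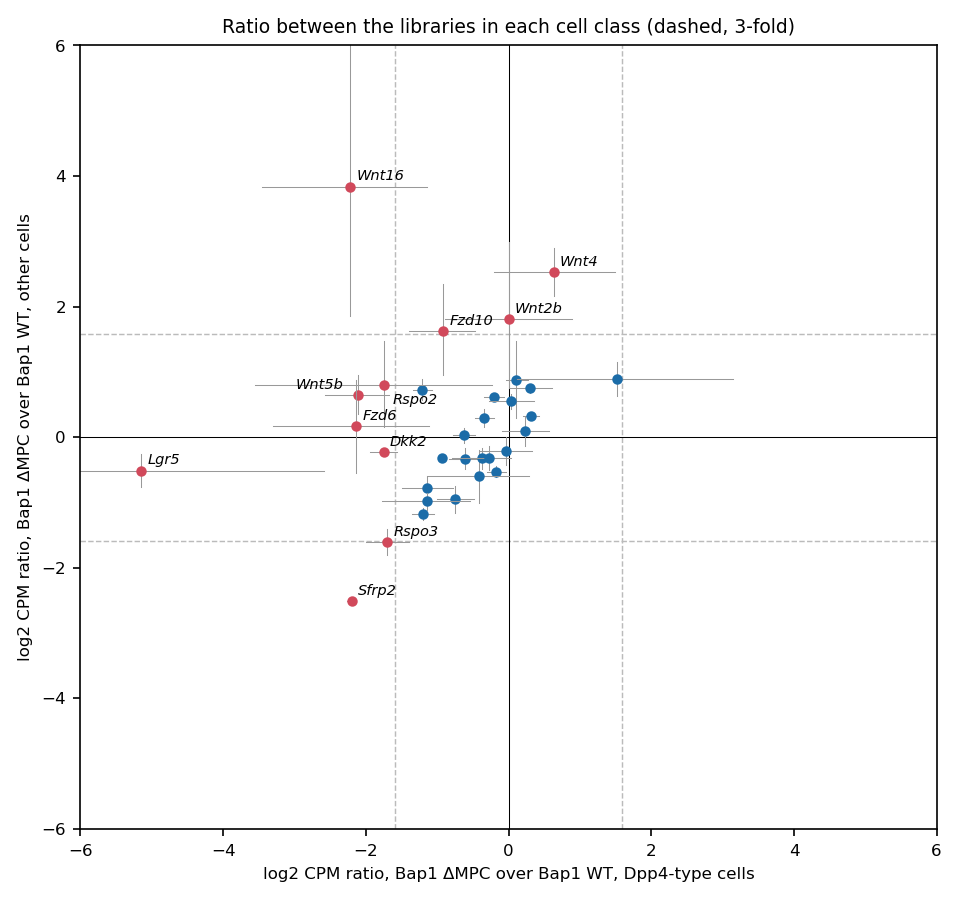
Log2 ratio of CPM in the ΔMPC-labelled over the WT-labelled library, in Dpp4-type cells (x axis) and other cells (y axis), for genes compared in both, with 95% counting intervals as thin bars cut at the frame, 3-fold as dashed lines and red points for genes past 3-fold in either class. Sfrp2 lies past 3-fold at the lower left with -2.20 and -2.51, and Wnt16 lies at the upper left with -2.22 and 3.84.

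*Wnt10b* and *Wnt1*, a pair of canonical ligands, were the 2 genes over 3-fold higher in Dpp4-type cells of both libraries. *Wnt10b*, known for holding back adipogenesis, had 641 UMIs in Dpp4-type cells of the WT-labelled library (45.4 CPM, 42.0 to 49.1) and 41 in other cells (1.11 CPM). In the ΔMPC-labelled library it had 724 UMIs in Dpp4-type cells (49.0 CPM, 45.5 to 52.7) and 71 in other cells (2.04 CPM). Its level was therefore 40.9-fold and 24.0-fold higher in Dpp4-type cells, and between the libraries Dpp4-type cells differed by a log2 ratio of 0.11 (-0.04 to 0.27). *Wnt1* was scarce in absolute terms, with 48 and 28 UMIs in Dpp4-type cells (3.40 and 1.90 CPM) and 3 UMIs in other cells of each library. The resulting log2 ratios between classes were 5.39 (3.75 to 7.71) and 4.46 (2.76 to 6.82), while *Wnt1* was detected in only 4.29% and 2.16% of Dpp4-type cells. *Wnt10b* was detected in 38.9% and 36.9% of them. On mouse chromosome 15 these genes are neighbours and are transcribed away from each other, with 11.7 kb between their starts in the GENCODE annotation of GRCm38, which is the mm10 build of the files. Of the 50 genes, 4 pairs lay within 100 kb of each other. The other three were *Wnt6* with *Wnt10a*, *Wnt3a* with *Wnt9a* and *Wnt9b* with *Wnt3*, and in each of these at least 1 gene had fewer than 20 UMIs.

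The sequences before the starts of *Wnt10b* and *Wnt1* are shown because this pair was over 3-fold higher in Dpp4-type cells of both libraries. That of *Sfrp2* is shown because it had the most UMIs among the genes past 3-fold between the libraries in both classes. Each is the 250 bases 5′ of the RefSeq start in GRCm38.p6, read on the gene's strand, at chr15:98778151-98778400 on the minus strand for *Wnt10b*, chr15:98789607-98789856 on the plus strand for *Wnt1* and chr3:83766071-83766320 on the plus strand for *Sfrp2*. Capitals mark the GC box GGGCGG, which was found in *Wnt1* only.
Wnt10b: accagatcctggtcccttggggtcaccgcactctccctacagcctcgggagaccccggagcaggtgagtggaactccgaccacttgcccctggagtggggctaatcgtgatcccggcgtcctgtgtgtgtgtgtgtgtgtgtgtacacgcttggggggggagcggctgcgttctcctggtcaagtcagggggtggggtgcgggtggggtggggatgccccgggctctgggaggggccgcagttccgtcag
Wnt1: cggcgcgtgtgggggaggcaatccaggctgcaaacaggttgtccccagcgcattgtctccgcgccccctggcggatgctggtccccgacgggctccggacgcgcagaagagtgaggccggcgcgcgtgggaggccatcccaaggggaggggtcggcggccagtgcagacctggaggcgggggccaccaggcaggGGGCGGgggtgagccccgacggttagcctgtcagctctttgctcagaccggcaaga
Sfrp2: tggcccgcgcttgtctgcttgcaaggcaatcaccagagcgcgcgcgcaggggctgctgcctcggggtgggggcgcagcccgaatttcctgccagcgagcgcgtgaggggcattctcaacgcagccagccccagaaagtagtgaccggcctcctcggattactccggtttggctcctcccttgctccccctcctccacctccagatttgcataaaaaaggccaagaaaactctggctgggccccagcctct
The 3 stretches had a G and C content of 66.8%, 71.6% and 63.6%, and held 14, 23 and 16 CG dinucleotides. Of the 39 genes, 26 had an entry in the RefSeq promoter table, with 29 promoters that run from 250 bases before to 50 after the start. Only the 250 bases before the start were searched, on either strand. The TCF/LEF letters CTTTGAA were in 0 of the 29 and in 4.46% of all 32851 promoters, and CTTTGAT was in 2 (6.90%) and in 3.21%. TATAAA was in 4 (13.8%), against 12.4%, and GGGCGG in 21 (72.4%), against 32.7%. A match describes letters and not a site in use.

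The ligand with the highest level in Dpp4-type cells of the WT-labelled library was *Wnt2*, a canonical ligand of lung and other mesenchyme. It had 1591 UMIs there (113 CPM, 107 to 118) and 491 in other cells (13.3 CPM), an 8.47-fold difference. In the ΔMPC-labelled library Dpp4-type cells had 720 UMIs (48.8 CPM, 45.3 to 52.5) and other cells 768 (22.1 CPM), a 2.21-fold difference. *Wnt2* was thus lower between the libraries in Dpp4-type cells, with a log2 ratio of -1.21 (-1.34 to -1.08), and higher in other cells, with 0.73 (0.57 to 0.90). The direction in other cells rested on the cluster led by *Chad*, described below: without it the log2 ratio of *Wnt2* in other cells was -0.64.

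*Wnt5b*, which acts mainly outside the β-catenin branch, followed *Wnt2* in direction. It had 219 UMIs in Dpp4-type cells of the WT-labelled library (15.5 CPM) and 53 in those of the ΔMPC-labelled library (3.59 CPM), which is 4.32-fold lower. In other cells it had 153 and 227 UMIs (4.15 and 6.53 CPM). *Wnt16*, known from bone and joint tissue, had 40 and 9 UMIs in Dpp4-type cells (2.83 and 0.609 CPM) and 2 and 27 UMIs in other cells (0.0542 and 0.776 CPM). Its log2 ratio of 3.84 in other cells had an interval of 1.85 to 6.96 because of the 2 UMIs. The ΔMPC-labelled cells of the cluster led by *Chad* held 20 *Wnt16* UMIs, and without that cluster *Wnt16* had too few UMIs to compare in other cells.

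*Wnt11* and *Wnt5a*, both ligands of the polarity branch, were among the abundant Wnt genes and differed less. *Wnt11* had 1001 and 836 UMIs in Dpp4-type and other cells of the WT-labelled library (70.9 and 22.7 CPM), and 830 and 963 in the ΔMPC-labelled library (56.2 and 27.7 CPM). The difference between classes was 3.13-fold and 2.03-fold. *Wnt5a* lay at 73.8 CPM in Dpp4-type and 76.1 CPM in other cells of the WT-labelled library, and at 65.7 and 52.7 CPM in the ΔMPC-labelled library. Between the libraries its log2 ratio was -0.17 (-0.30 to -0.04) in Dpp4-type and -0.53 (-0.61 to -0.44) in other cells, so neither reached 2-fold. *Wnt9a*, known from joint formation, had between 9.43 and 11.9 CPM in all 4 groups, and without the cluster led by *Chad* its log2 ratio between the libraries in other cells was -0.46.

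*Wnt6* was over 3-fold lower in Dpp4-type than in other cells of both libraries, and *Wnt4* in the ΔMPC-labelled library. *Wnt4*, a ligand that acts in kidney, gonad and muscle, had 76 UMIs in other cells of the WT-labelled library (2.06 CPM, 1.62 to 2.58) and 413 in those of the ΔMPC-labelled library (11.9 CPM, 10.8 to 13.1), a 5.77-fold difference. In Dpp4-type cells it had 21 and 34 UMIs (1.49 and 2.30 CPM), and the interval of the log2 ratio between the libraries, -0.20 to 1.49, included 0, as did that between the classes of the WT-labelled library, -1.24 to 0.24. *Wnt6* had 1 and 4 UMIs in Dpp4-type cells and 75 and 130 in other cells (2.03 and 3.74 CPM). *Wnt2b* was near its counting limit, with 23 and 24 UMIs in Dpp4-type cells and 10 and 33 in other cells.

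Among Frizzled receptors, which bind Wnts through a cysteine-rich extracellular domain, *Fzd2* differed most evenly between the libraries. It had 1056 UMIs in Dpp4-type cells of the WT-labelled library (74.8 CPM) and 480 in those of the ΔMPC-labelled library (32.5 CPM), and 3230 and 1349 in other cells (87.5 and 38.8 CPM). The log2 ratios were -1.20 (-1.36 to -1.05) and -1.17 (-1.27 to -1.08), which is 2.30-fold and 2.26-fold lower. *Fzd7* was lower by the same measure in both classes, with -1.14 (-1.50 to -0.78) and -0.78 (-0.95 to -0.61), from 14.6 to 6.64 CPM and from 22.2 to 12.9 CPM. None of these passed 3-fold. *Fzd4*, which also binds the non-Wnt ligand Norrin, was the most abundant receptor in other cells. There it had 99.7 CPM in the WT-labelled and 154 CPM in the ΔMPC-labelled library, and in Dpp4-type cells 62.3 and 54.3 CPM. Its share of all Frizzled UMIs in other cells was 35.1% and 55.6%.

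*Fzd10* and *Fzd6* were the receptors over 3-fold higher in Dpp4-type cells of the WT-labelled library. *Fzd10* had 116 UMIs in Dpp4-type cells (8.22 CPM, 6.79 to 9.86) and 25 in other cells (0.678 CPM), a 12.1-fold difference. In the ΔMPC-labelled library it had 64 and 73 UMIs (4.33 and 2.10 CPM), a 2.06-fold difference. *Fzd6* was rarer, with 42 and 10 UMIs in Dpp4-type cells of the WT- and ΔMPC-labelled library (2.98 and 0.677 CPM) and 35 and 37 in other cells (0.949 and 1.06 CPM). Its 3.14-fold difference between the classes of the WT-labelled library was under 3-fold when cells were thinned to 5000 UMIs (log2 ratio 1.35) and with a mean over cells. Its log2 ratio between the libraries in other cells was 0.17, and -2.83 without the cluster led by *Chad*. *Fzd1* had 58.5 and 38.0 CPM in Dpp4-type cells and 38.7 and 39.5 CPM in other cells, and *Fzd8* had 26.9, 17.6, 19.5 and 15.5 CPM in the same order. *Fzd3* and *Fzd5* lay under 12 CPM in all groups, and *Fzd9* had 22 UMIs in all.

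The co-receptors were higher in other cells than in Dpp4-type cells, except *Ror2*. *Lrp6*, the main co-receptor of the β-catenin branch by level, had 80.8 CPM in Dpp4-type and 133 CPM in other cells of the WT-labelled library, and 100 and 166 CPM in the ΔMPC-labelled library. *Lrp5* had 11.8 and 28.4 CPM in the first and 12.1 and 41.7 CPM in the second, where the 3.46-fold difference between classes passed the threshold. *Ror1*, a receptor for Wnt5a-type ligands, had 8.08 and 19.6 CPM, and 6.23 and 15.7 CPM. *Ror2*, the related receptor, had between 12.5 and 18.1 CPM in the 4 groups, and its log2 ratios between classes of 0.21 (-0.01 to 0.42) and 0.26 (0.02 to 0.49) were small in each. Between the libraries no co-receptor reached 2-fold in either class, with log2 ratios from -0.37 for *Ror1* in Dpp4-type cells to 0.56 for *Lrp5* in other cells.

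*Rspo3* was the main R-spondin, and it was lower in the ΔMPC-labelled library in both classes. R-spondins raise the response of a cell to Wnt by sparing Frizzled proteins from turnover. In Dpp4-type cells *Rspo3* had 387 and 125 UMIs (27.4 CPM, 24.8 to 30.3, and 8.46 CPM, 7.05 to 10.1), and in other cells 945 and 293 (25.6 CPM, 24.0 to 27.3, and 8.43 CPM, 7.49 to 9.45). It was thus 3.24-fold and 3.04-fold lower, while its classes had equal levels within counting error in each library. In other cells this size lay close to the threshold, and the log2 ratio of *Rspo3* there was -1.43, under 3-fold, without the cluster led by *Chad*, against -1.60 with it. The cluster led by *Pitpnm3* (690 WT-labelled and 37 ΔMPC-labelled cells, none Dpp4-type) held 619 of the 945 UMIs. The ratio without that cluster was not computed. From the lowest to the highest range of the score, *Rspo3* had 30.3, 22.6, 9.15, 10.4 and 32.4 CPM in the WT-labelled library, so it was uneven within each class. *Rspo1* was found in other cells, with 199 and 348 UMIs (5.39 and 10.0 CPM) against 6 and 18 in Dpp4-type cells, a 12.7-fold and an 8.21-fold difference. *Rspo2* and *Rspo4* had 108 and 34 UMIs in all. In Dpp4-type cells *Rspo2* had 16 UMIs in the WT-labelled and 5 in the ΔMPC-labelled library, a log2 ratio of -1.74 (-3.55 to -0.23). It was not past 3-fold there with a score cut of 15. Without the cluster led by *Chad*, the log2 ratios between the libraries in other cells changed sign for *Rspo1*, from 0.89 to -0.35, and for *Rspo2*, from 0.80 to -0.46.

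The R-spondin receptors *Lgr4* and *Lgr5* were both lower in the ΔMPC-labelled library. *Lgr4* had 23.0 and 13.7 CPM in Dpp4-type cells and 16.0 and 8.28 CPM in other cells, or 1.68-fold and 1.93-fold lower. *Lgr5*, a Wnt target itself and a stem cell marker in intestine, had 34 UMIs in Dpp4-type cells of the WT-labelled library (2.41 CPM) and 1 in those of the ΔMPC-labelled library. The log2 ratio was -5.15, with an interval of -10.50 to -2.58 because of the single UMI. The 34 UMIs came from 19 cells, and 22 of them lay at a score of 25 to 40, near the class cut. At a score of 40 or more *Lgr5* had 12 and 0 UMIs in the WT- and ΔMPC-labelled library, too few to compare. In other cells *Lgr5* had 341 and 226 UMIs (9.24 and 6.50 CPM), a log2 ratio of -0.51 (-0.76 to -0.26). The ΔMPC-labelled cells of the cluster led by *Chad* held 205 *Lgr5* UMIs, and without that cluster the ratio was -3.53.

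*Sfrp2* and *Sfrp4*, secreted proteins that bind Wnts through a Frizzled-like domain, were the most abundant of the 39 genes. *Sfrp2* had 10768 UMIs in Dpp4-type cells of the WT-labelled library (763 CPM, 749 to 777) and 2448 in those of the ΔMPC-labelled library (166 CPM, 159 to 172). In other cells it had 12411 and 2060 UMIs (336 CPM, 330 to 342, and 59.2 CPM, 56.7 to 61.9). It was therefore 4.60-fold and 5.68-fold lower in the ΔMPC-labelled library, and 2.27-fold and 2.80-fold higher in Dpp4-type than in other cells of each library. The cluster led by *Pappa2* and *Kdr*, 6.70% Dpp4-type, held 11430 *Sfrp2* UMIs in WT-labelled and 271 in ΔMPC-labelled cells. The ratio in other cells without that cluster was not computed. WT-labelled cells of the clusters led by *Susd5*, *Art4* and *Pitpnm3* had 22.4, 99.5 and 32.2 CPM of *Sfrp2*. ΔMPC-labelled cells of those led by *Cldn2*, *Gm30075* and *Chad* had 62.0, 24.0 and 47.7 CPM. *Sfrp4* had 492 and 257 CPM in Dpp4-type cells and 609 and 492 CPM in other cells, which is 1.91-fold and 1.24-fold lower. In other cells these levels came from 22480 and 17116 UMIs. The cluster led by *Chad*, 1.38% Dpp4-type, held 566 *Sfrp4* UMIs in WT-labelled and 11382 in ΔMPC-labelled cells. The 1.24-fold difference thus rested on that cluster. Without it the log2 ratio of *Sfrp4* between the classes of the ΔMPC-labelled library, -0.94, changed sign. *Sfrp1* was lower in Dpp4-type than in other cells of both libraries. It had 161 and 208 UMIs in Dpp4-type cells (11.4 and 14.1 CPM) and 2815 and 4464 in other cells (76.3 and 128 CPM). Its level was thus 6.69-fold and 9.11-fold lower in Dpp4-type cells. Between the libraries it was 1.68-fold higher in other cells of the ΔMPC-labelled library, and in Dpp4-type cells the log2 ratio was 0.30 (0.00 to 0.61). *Frzb* and *Sfrp5*, known from cartilage and adipose tissue, had 121 and 33 UMIs in all, and in other cells were 4.10-fold and 5.73-fold higher in the ΔMPC-labelled library. Without the cluster led by *Chad* the log2 ratio of *Frzb* there was 1.56, under 3-fold, against 2.04, and *Sfrp5* had too few UMIs to compare. The *Sfrp5* UMIs in other cells came from few cells, with 5 UMIs in 2 WT-labelled cells and 27 in 4 ΔMPC-labelled cells.

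Among the remaining antagonists, *Dkk2* was the most abundant. *Dkk2*, which binds *Lrp5* and *Lrp6*, had 1043 and 324 UMIs in Dpp4-type cells (73.9 CPM, 69.5 to 78.5, and 21.9 CPM, 19.6 to 24.5), and 4246 and 3421 in other cells (115 and 98.4 CPM). It was 3.37-fold lower between the libraries in Dpp4-type cells and 1.17-fold lower in other cells, so the difference between classes was 1.56-fold in the WT-labelled and 4.48-fold in the ΔMPC-labelled library. Without the cluster led by *Chad* the latter difference was under 3-fold, with a log2 ratio of -1.58. That cluster held 60 *Dkk2* UMIs in WT-labelled and 1793 in ΔMPC-labelled cells. The small difference between the libraries in other cells thus also rested on it. *Dkk3*, a member of the family that does not act on *Lrp6* in the way of *Dkk2*, had 5.10 and 2.30 CPM in Dpp4-type cells and 36.9 and 18.7 CPM in other cells. It was 7.24-fold and 8.12-fold lower in Dpp4-type cells and, between the libraries, 2.22-fold and 1.98-fold lower. In other cells its log2 ratio was -1.94, past 3-fold, without the cluster led by *Chad*. *Wif1* had no UMI in Dpp4-type cells of the WT-labelled library (interval up to 0.261 CPM) and 68 UMIs in other cells (1.84 CPM). With the 0 set to 3 counts, or 0.213 CPM, it was 8.67-fold lower in the former. The log2 ratio was then -3.12, with an upper interval limit of -2.78. The 68 UMIs came from 15 cells, and without the 1% of cells with the most UMIs the log2 ratio formed in this way was -1.41, under 3-fold. Between the libraries in other cells the log2 ratio of *Wif1* was -0.72, and -3.58 without the cluster led by *Chad*.

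The cells were also clustered on 5000 variable genes without the 50 genes of the symbol rule, which gave 10 clusters. The clusters separated the libraries, so the same class was made of different clusters in each. The cluster led by *Akr1c18* and *Ccdc42* held 1014 WT-labelled and 222 ΔMPC-labelled cells, of which 1095 were Dpp4-type. The cluster led by *Plet1* and *Cldn11* held 6 and 1197, of which 950 were Dpp4-type. Members of the same pathway had their highest levels in different clusters, as the map of clusters shows.

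**Figure D4:**
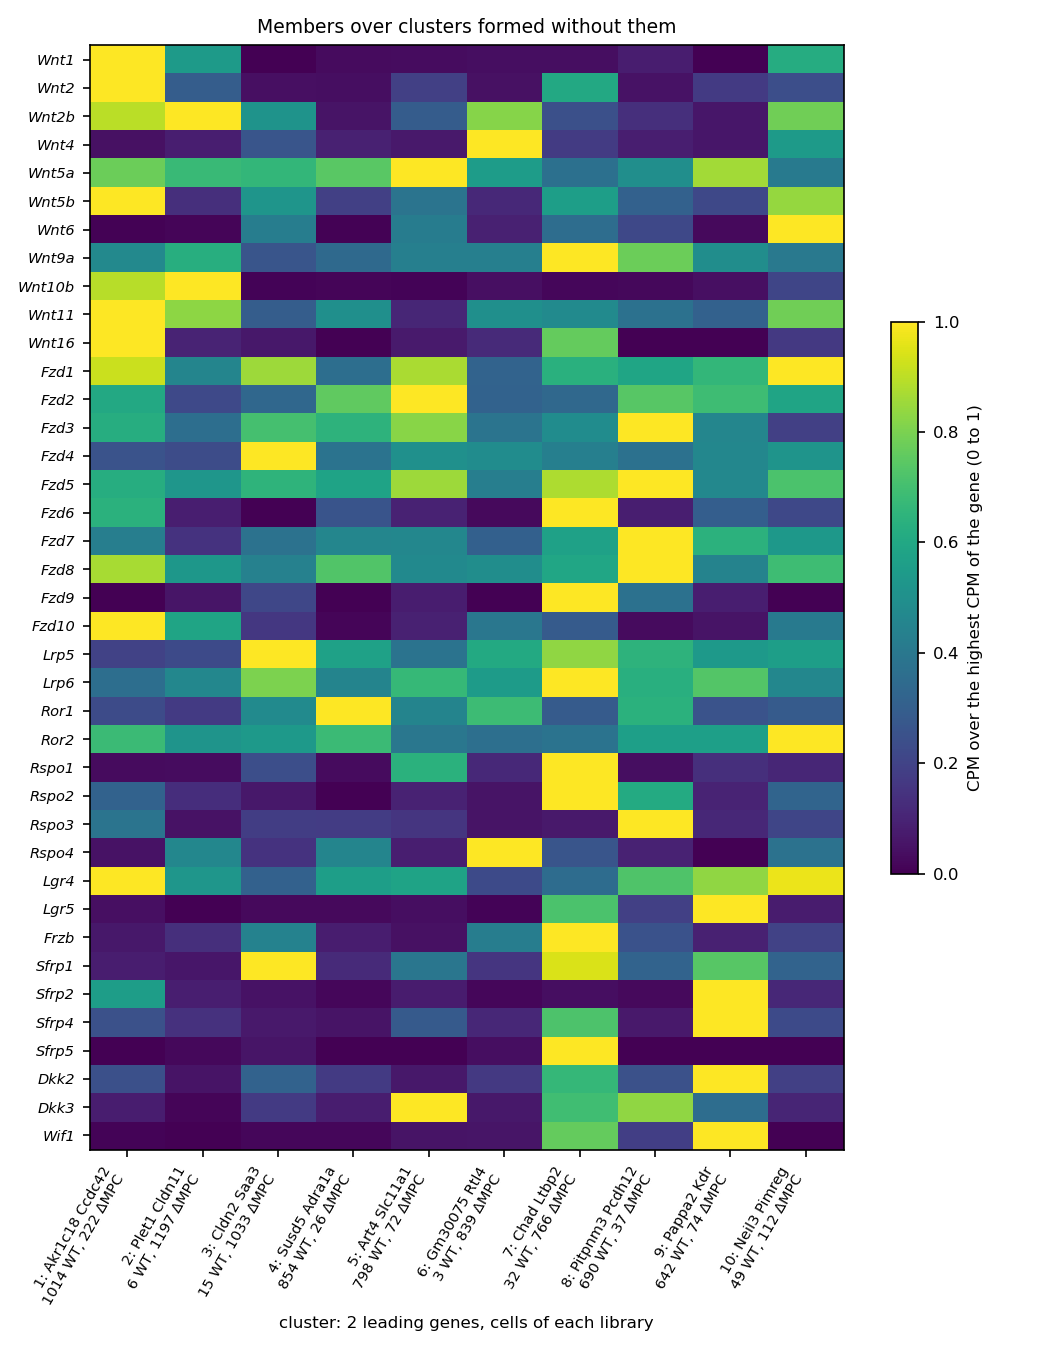
CPM of each of the 39 genes in 10 clusters, divided by the highest CPM of that gene, from dark (0) to bright (1), with the 2 leading genes and the number of cells of each library under each column. Wnt1, Wnt2, Wnt5b, Wnt11, Wnt16 and Fzd10 are brightest in the cluster led by Akr1c18, Lgr5, Sfrp2, Sfrp4, Dkk2 and Wif1 in the cluster led by Pappa2 and Kdr, and Rspo1, Rspo2, Frzb and Sfrp5 in the cluster led by Chad.

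*Wnt2* reached 112 CPM in the cluster led by *Akr1c18*, where the 222 ΔMPC-labelled cells had 103 CPM and the 1014 WT-labelled cells 114 CPM. In the cluster led by *Plet1* it had 33.0 CPM. *Wnt10b* did not part them in this way, with 42.9 and 48.0 CPM, and *Sfrp2* had 695 and 104 CPM. *Rspo3* had 28.6 and 3.73 CPM, and the ΔMPC-labelled cells of the cluster led by *Akr1c18* had 30.7 CPM of it against 28.2 CPM in the WT-labelled cells. *Wnt2*, *Sfrp2* and *Rspo3* were thus lower in the cluster led by *Plet1* than in that led by *Akr1c18*. Within the latter the libraries differed less in these genes than the Dpp4-type cells did, with *Sfrp2* at 735 and 493 CPM. Cells share a cluster because their other transcripts are alike. A smaller difference between the libraries within a cluster can therefore follow from the clustering, which was not tested. For *Dkk2* the libraries differed within the cluster led by *Akr1c18* too, with 79.4 CPM in WT-labelled and 39.7 CPM in ΔMPC-labelled cells. *Wnt10b* had 45.8 and 28.1 CPM there in the same order, a wider difference than the 45.4 and 49.0 CPM over Dpp4-type cells.

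Among the other cells, the cluster led by *Pappa2* and *Kdr* (642 WT-labelled and 74 ΔMPC-labelled cells) had the highest *Sfrp4* (1774 CPM), *Sfrp2* (1246 CPM), *Dkk2* (298 CPM), *Lgr5* (30.8 CPM) and *Wif1* (5.75 CPM), and it held 48.0% of all *Lgr5* UMIs. Its 74 ΔMPC-labelled cells had 284 CPM of *Sfrp2* against 1355 CPM in the WT-labelled cells. The cluster led by *Chad* and *Ltbp2* (32 and 766 cells), in which the tendon list summed to 1883 CPM, held 34.2% of *Lgr5* UMIs, 41.9% of *Rspo1* UMIs and 87.9% of the 33 *Sfrp5* UMIs, and its *Sfrp4* reached 1279 CPM. It also had 67.6 CPM of *Wnt2*. *Wnt4* was highest in the cluster led by *Gm30075* and *Rtl4* (3 and 839 cells) with 27.8 CPM, which held 46.1% of *Wnt4* UMIs. *Fzd4* (240 CPM), *Lrp5* (54.3 CPM) and *Sfrp1* (197 CPM) were highest in the cluster led by *Cldn2* and *Saa3* (15 and 1033 cells), in which the adipocyte list summed to 160 CPM. *Rspo3* was highest in the cluster led by *Pitpnm3* and *Pcdh12* (690 and 37 cells) with 74.5 CPM, and *Dkk3* (67.1 CPM), *Fzd2* (112 CPM) and *Wnt5a* (96.3 CPM) in the cluster led by *Art4* and *Slc11a1* (798 and 72 cells). *Wnt6* was highest in the cluster of 161 cycling cells, with 26 UMIs, all of them in ΔMPC-labelled cells.

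The score behind the classes is continuous, and 6 genes, chosen after their values were seen, were followed over 5 ranges of it. *Wnt10b* was higher at each higher range of the score in both libraries, from 0.381 CPM below 5 to 52.1 CPM at 40 or more in the WT-labelled library and from 0.358 to 58.5 CPM in the ΔMPC-labelled library. *Wnt2* went from 8.24 to 127 CPM in the first and from 15.9 to 54.5 CPM in the second, where the range of 5 to 15 had 38.0 CPM and that of 15 to 25 had 23.6 CPM. *Wnt5b* in the WT-labelled library stayed between 3.61 and 5.98 CPM up to a score of 40 and had 18.3 CPM above it. *Sfrp2* was already at 748 CPM in the range of 15 to 25 of the WT-labelled library, just under the class cut, and at 763 CPM at 40 or more. *Sfrp1* was lower at each higher range, from 84.4 to 9.24 CPM and from 171 to 11.9 CPM.

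**Figure D5:**
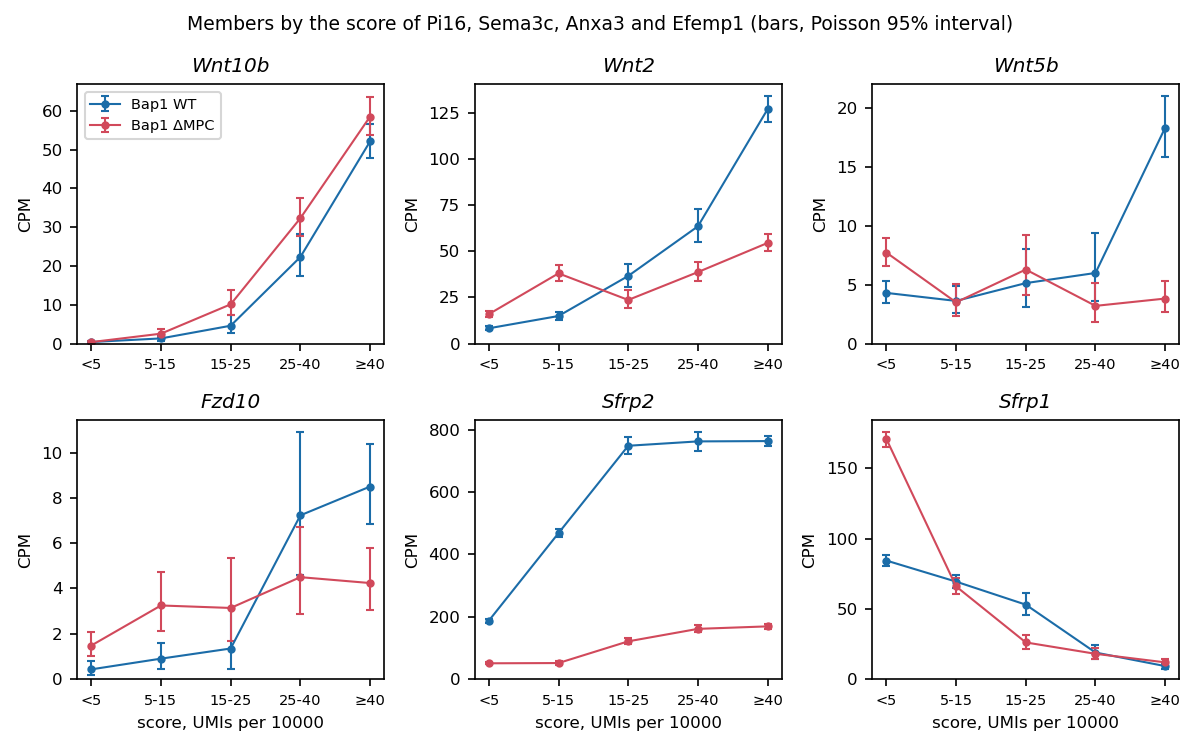
CPM of Wnt10b, Wnt2, Wnt5b, Fzd10, Sfrp2 and Sfrp1 (linear axes from 0) in 5 ranges of the score of Pi16, Sema3c, Anxa3 and Efemp1, in UMIs per 10000, for the WT-labelled (blue) and ΔMPC-labelled (red) library with Poisson 95% intervals. Wnt2 is higher in the ΔMPC-labelled library below 15 and higher in the WT-labelled library above it, up to 127 against 54.5 CPM at 40 or more, Wnt5b is far apart at 40 or more, and Sfrp2 is higher in the WT-labelled library over the whole range.

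To compare how many cells carried a transcript, each cell was thinned to 5000 UMIs, which left out 120 and 210 shallower cells. *Wnt10b* was then detected in 19.3% and 20.7% of Dpp4-type cells of the WT- and ΔMPC-labelled library, and in 0.539% and 0.944% of other cells. *Wnt2* was detected in 32.0% and 14.5% of Dpp4-type cells and in 4.82% and 4.89% of other cells, and *Sfrp2* in 70.4% and 28.8% and in 18.1% and 8.16%. Without thinning, at least 1 of the 11 Wnt ligands was detected in 93.9% and 87.9% of Dpp4-type cells and in 70.7% and 65.0% of other cells. The deposited cells were FAPs, so a cell type without these transcripts, which would give the share due to free RNA, was not at hand. Among Dpp4-type cells with a *Wnt10b* UMI, *Wnt2* was detected in 41.3% (81 of 196) of the WT-labelled and 18.5% (46 of 249) of the ΔMPC-labelled cells, against 29.8% and 13.4% of those without. Among other cells with an *Lgr5* UMI, *Dkk2* was detected in 69.3% (61 of 88) and 38.9% (14 of 36), against 21.3% and 15.9% of those without. These pairs were chosen after their values were seen, and cells of 1 library are not replicates.

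Of 8 genes for Wnt secretion with enough UMIs, none passed 3-fold between classes or libraries. Over all genes, 1.63% to 7.49% did so in a given direction and comparison, so a count of none among 8 genes does not set them apart. The most abundant were *Tmed2* (339 and 327 CPM over all cells of the WT- and ΔMPC-labelled library), *Sar1a* (270 and 234 CPM) and *Snx3* (171 and 183 CPM), which serve protein transport. Between the libraries, the secretion and intracellular genes varied less than the 39 genes. Of 51 intracellular genes none passed 2-fold between the libraries over all cells, but the share of all genes past 2-fold is not at hand. Their median size of the log2 ratio was 0.17 (0.23 for the secretion genes), against 0.55 over the 39 genes and 0.26 over all genes. The most abundant were *Rhoa* (504 and 579 CPM) and *Rac1* (277 and 311 CPM), small GTPases of the polarity branch, and *Csnk1a1* (207 and 215 CPM), a kinase of the β-catenin destruction complex. Between the classes, *Dact2*, which encodes a Dishevelled-binding protein, was 43.7-fold and 25.2-fold higher in Dpp4-type cells, with 190 and 4.34 CPM in the WT-labelled and 226 and 8.97 CPM in the ΔMPC-labelled library. Its relative *Dact3* was 4.64-fold and 6.11-fold lower in Dpp4-type cells. *Daam2* and *Nfatc2* were also over 3-fold lower in both libraries, so that 3 of 51 genes were lower in each, near or below the shares over all genes. *Dact1*, named after its values were seen, was the single intracellular gene past 3-fold between libraries in a class, at 81.3 and 25.8 CPM in other cells.

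Of 30 other extracellular modulators and co-receptors, 1 was over 3-fold higher and 2 were over 3-fold lower in the ΔMPC-labelled library over all cells, against 3.15% and 2.12% of all genes. *Cpz*, a secreted carboxypeptidase with a Frizzled-like domain, had 9476 and 2151 UMIs (186 and 43.4 CPM), which is 4.28-fold lower, and was lower in Dpp4-type (195 and 62.2 CPM) and in other cells (182 and 35.5 CPM). *Celsr2*, a cadherin of the polarity branch, was 3.11-fold higher (1.16 and 3.59 CPM), and *Sostdc1*, named after its values were seen, had 33 and 8 UMIs. The most abundant of this list were *Igfbp4* (799 and 1252 CPM), *Gpc3* (456 and 356 CPM) and *Sulf1* (190 and 261 CPM). Between the classes, *Ptk7*, *Sdc1* and *Prickle1* were over 3-fold lower in Dpp4-type cells of both libraries, where 4 of 29 and 4 of 27 genes of the list were lower, against 7.06% and 7.49% of all genes.

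Of 24 genes listed as Wnt targets in other tissues, 1 was over 3-fold higher and 1 lower between the libraries over all cells, which is near the shares of 3.15% and 2.12% over all genes. Their median log2 ratio was 0.18, against 0.10 over all genes, and its median size without the sign was 0.53, against 0.55 over the 39 genes. *Wisp1*, a matricellular protein of the CCN family, had 845 and 241 UMIs (16.6 and 4.86 CPM), 3.40-fold lower, and *Zcchc12* had 19 and 102 UMIs, 5.53-fold higher. *Tnfrsf19*, a receptor of the TNF family, had 121 and 50 UMIs, all in other cells. In Dpp4-type cells *Wisp1* and *Wisp2* were 4.07-fold and 4.18-fold lower in the ΔMPC-labelled library. Between the classes *Nkd2*, *Wisp1*, *Wisp2*, *Snai2* and *Tnfrsf19* were over 3-fold lower in Dpp4-type cells of both libraries. In all, 5 of 22 target genes were lower and none higher in the WT-labelled library, and 7 of 23 were lower and 1 higher in the ΔMPC-labelled library, against 7.06% and 7.49% of all genes lower and 3.01% and 2.19% higher. The most abundant of the list, *Jun* (3292 and 3282 CPM), *Cyr61* (341 and 323 CPM) and *Ccnd2* (143 and 174 CPM), differed little between the libraries, and *Jun* is also a gene of the stress response to cell isolation.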

How the data were processed

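Droplet libraries (10x Genomics 3' kit) of FAPs sorted from limb muscle were deposited as raw UMI counts, which the authors had made for each gene in each cell and left unscaled. The submitters' processing notes name Cell Ranger 3.1.0, the mm10 build and Seurat 3.2.1, and the methods state that cells of low quality, doublets and non-FAPs were removed, so no doublet caller was run here. The deposited cells had 1501 to 4998 detected genes and at most 5.00% mitochondrial UMIs.

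Within each library, UMIs of the cells in a class were added up and scaled to CPM. Ratios were formed for genes with 20 or more UMIs over the groups compared, with exact Poisson (levels), exact conditional binomial (ratios) and Clopper-Pearson (shares) 95% intervals, and a count of 0 was set to 3 counts per group for ratios. No test was run. Clusters were formed with scanpy 1.11.5 and leidenalg 0.10.2 (8 principal components, 20 neighbours, resolution 0.5), and TMM factors came from edgeR 4.0.16, which ran no test. Ratios were tested on simulated data. All 39 genes could be named. Genes of the other pathway lists were named if among the 3 most abundant of a list, or with 100 or more UMIs and past 2-fold between libraries over all cells or past 3-fold between classes in both libraries. The genes and lists were chosen with earlier results of these data known. Alternatives changed the score cut, fold, minimum of UMIs, scaling, depth, cells and clustering. Analyses ran in Python 3.11.15 with scipy 1.17.1, and in R 4.3.3.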

Additional observations from a re-analysis of the deposited data

Results flagged for a closer look

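Of the 32 genes compared between the libraries in both classes, 7 had counting intervals on opposite sides of 0 in Dpp4-type and other cells. The difference between the classes was itself not tested, and the values are log2 ratios of the ΔMPC-labelled over the WT-labelled library. *Wnt2* had -1.21 in Dpp4-type and 0.73 in other cells. *Wnt5b* had -2.11 and 0.65. *Wnt11* had -0.34 and 0.29. *Wnt16* had -2.22 and 3.84. *Fzd4* had -0.20 and 0.62. *Fzd10* had -0.92 and 1.63. *Rspo2* had -1.74 and 0.80. Without the cluster led by *Chad*, an alternative chosen after seeing the data, the ratio in other cells was -0.64 for *Wnt2* and -0.46 for *Rspo2*, so these no longer lay on opposite sides. In the same cells it was 2.00 for *Fzd10*, and *Wnt16* had too few UMIs to compare.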

How the results depend on the processing

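Under the alternatives that kept the 3-fold threshold, no called ratio that could be recomputed changed sign. Of 1558 log2 ratios of single genes recomputed under them, 1409 moved by less than their counting interval and 149 by more. Of 476 that were called as reported, 451 stayed past the fold. Genes that fell under 20 UMIs under an alternative are not among these ratios, so calls lost in that way are not counted. With cells thinned to 5000 UMIs, 4 of the 8 calls between the libraries in Dpp4-type cells could be recomputed. The counts of genes past the fold were 8 (libraries, Dpp4-type cells), 8 (libraries, other cells), 16 (classes, WT-labelled) and 13 (classes, ΔMPC-labelled). With a fold of 2 they became 13 in the first and 20 in the last. With a minimum of 100 UMIs they became 4, 4 and 9 in the first 3, since fewer genes were compared, and with cells thinned to 5000 UMIs 4 and 5 in the first 2. A further 3 alternatives were chosen after seeing the data: other cells with a score under 5 only, leaving out the cluster led by *Chad*, and leaving out cells with 3 or more UMIs of the adipocyte list. Without the cluster led by *Chad*, 4 of 35 genes were over 3-fold higher and 5 lower between the libraries in other cells. There *Wnt2*, *Wnt9a*, *Fzd6*, *Rspo1* and *Rspo2* changed sign. The shares over all genes are not at hand for the alternatives. With TMM factors or without the 50 most abundant genes in the scaling, *Wnt9a* and *Fzd1* in other cells and *Lrp5* in Dpp4-type cells changed sign between the libraries. The highest cluster of a gene shared leading genes with that reported for 32 of 39 genes at resolution 1.0, 37 with 20 principal components and 39 with the 50 genes kept in the clustering. No paired analysis was possible because only 1 library was made from each genotype. Genes under about 20 UMIs in a comparison could not be assessed at this depth.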
